A study of Homo sapiens with 4 samples.

Results

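The fate of pyruvate was followed through 10 genes of the 59652 in the count table, chosen by name: the pyruvate dehydrogenase kinases PDK1, PDK2, PDK3 and PDK4, the phosphatase subunits PDP1 and PDP2, the pyruvate dehydrogenase subunit PDHA1, the lactate dehydrogenase subunits LDHA and LDHB, and the mitochondrial pyruvate carrier subunit MPC1. All 10 were in the table. The RNA came from Huh7 and PLC cells, both human hepatocellular carcinoma (HCC) lines labelled as wild type. Both lines were grown in glucose-free DMEM with 10% FBS, to which the authors added glucose to 5 mM (low glucose) or 25 mM (high glucose) for 48 h. Each line at each concentration gave 1 library, so no condition has a replicate, and a difference within a line has no replicate check. The comparison of high with low glucose asks which genes respond to glucose in HCC cells.

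Pyruvate, the end product of glycolysis, enters mitochondria through the carrier that MPC1 forms with MPC2. There the pyruvate dehydrogenase (PDH) complex turns it into acetyl-CoA, and PDHA1 is the subunit that carries the regulated serines. PDK enzymes phosphorylate PDHA1 and switch the complex off, and PDP1 and PDP2, the catalytic subunits of the phosphatase, switch it on again. Lactate dehydrogenase in the cytosol interconverts pyruvate and lactate. It is a tetramer of LDHA and LDHB subunits, of which LDHA is the muscle type and LDHB the heart type. PDK4 is known as the kinase of fasting in liver and muscle, and PDK1 and LDHA as genes switched on in hypoxia.

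The libraries held 16049686 to 30279716 reads on genes, the fewest in PLC cells at high glucose, and 0 reads on mitochondrial genes. Of 8 hepatocyte markers, all 8 had reads in both Huh7 libraries, whereas in PLC cells TTR had 4 reads at low and 0 at high glucose and the others were detected. The summed FPKM of these markers was 5200 and 5389 in Huh7 cells, against 752 and 1636 in PLC cells at low and high glucose. FPKM is the read count scaled to the length of the gene and the depth of the library. Leukocyte, endothelial and fibroblast markers summed to at most 4.86 FPKM per list in any library, with CD3E and KDR at 0 reads in all 4. Not all were near 0. CD14, a leukocyte marker, was at 4.20 and 4.84 FPKM in Huh7 cells and at 0.681 and 2.95 FPKM in PLC cells. PECAM1, an endothelial marker, was at 2.37 and 2.55 FPKM in Huh7 cells. COL3A1, a fibroblast marker, reached 1.3 FPKM in PLC cells at high glucose. All other markers of these lists were under 0.5 FPKM.

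The stretches before the transcription start show how the promoters of these genes differ in letters, and those of LDHA and LDHB, PDK1 and PDK4 were picked because their levels are set against each other in what follows. RefSeq (GRCh38) gave promoters for 9 of the 10 genes. ACGTG is the core of the hypoxia response element, and it also lies inside CACGTG, the E-box to which MYC binds. Capitals mark ACGTG on either strand (read as CACGT on the other), and bases that lie in annotated exons were left out, except in the 30 bases shown for PDK1. CACGTG counts once on each strand, so that matches can overlap. The windows below are chr11:18394313-18394559 (plus strand) for LDHA, chr12:21657972-21658092 (minus strand) for LDHB, chr2:172556060-172556089 (plus strand) for PDK1 and chr7:95596517-95596766 (minus strand) for PDK4.
LDHA: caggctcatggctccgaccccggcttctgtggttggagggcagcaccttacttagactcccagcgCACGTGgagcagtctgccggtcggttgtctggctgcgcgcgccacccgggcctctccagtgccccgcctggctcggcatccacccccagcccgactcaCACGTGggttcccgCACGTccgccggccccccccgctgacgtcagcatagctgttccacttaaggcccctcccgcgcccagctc
LDHB: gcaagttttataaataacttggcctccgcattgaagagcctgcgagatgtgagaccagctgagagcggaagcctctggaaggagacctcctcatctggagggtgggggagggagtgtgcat
PDK1: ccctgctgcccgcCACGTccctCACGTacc
PDK4: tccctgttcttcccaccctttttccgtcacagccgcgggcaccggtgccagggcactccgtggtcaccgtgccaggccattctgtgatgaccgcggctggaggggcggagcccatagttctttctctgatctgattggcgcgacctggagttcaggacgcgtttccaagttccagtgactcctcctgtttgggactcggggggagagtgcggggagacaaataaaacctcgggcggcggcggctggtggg
Over the whole 250 bases before the start, LDHA had 5 matches and PDK1 had 2, the nearest 68 and 3 bases from the start. PDK2 had 2 matches, PDK3 had 1 and PDP2 had 3. PDK4, PDHA1, LDHB and MPC1 had none. Of 35116 promoters in the table, 18.5% held at least 1 match in a window of this length, against 5 of the 9 genes here. ACGTG itself holds a CG, and this share was not matched for the CG number of the promoters, so the 2 shares are not like for like. Over the same 250 bases, which for PDK1 and LDHB are longer than the stretch shown, CG dinucleotides numbered 22 in LDHA, 34 in PDK1, 19 in PDK4 and 9 in LDHB. The median over all promoters was 11. A match of letters is a description of the sequence and not a binding site.

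Within a line, a gene was called higher or lower where its FPKM was over 0.5 in at least 1 of the 2 libraries and the ratio of high to low glucose, with 0.1 added to both values, was over 1.5 or under 0.67. In Huh7 cells 7 of the 10 genes passed the FPKM filter. PDK1, PDK3 and LDHA were called higher, where 14.1% of all genes past the filter were, and PDP2 was called lower, where 13.7% of all genes were. In PLC cells all 10 passed the filter. PDK2, PDK4 and PDP1 were called higher, where 26.2% of all genes were, and none was called lower, where 17.0% of all genes were. PDK3 and LDHA in PLC cells were just short of the threshold, and PDK2 and PDK4 in Huh7 cells had ratios past it (2.14 and 1.80) with FPKM under the filter. The median log2 ratio was 0.47 for the 7 genes in Huh7 cells and 0.48 for the 10 genes in PLC cells, against 0.04 and 0.11 for all genes. These values are per total RNA of a culture, so fewer cells of a kind and less RNA per cell cannot be told apart. Scaling by TMM shifted log2 ratios by -0.04 in Huh7 and -0.12 in PLC cells before 0.1 is added, and by less for low genes after it, and with it the higher genes went from 60.7% to 51.3% of all calls in PLC cells.

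To ask what both lines have in common, the counts were fitted in edgeR (quasi-likelihood test) with line and glucose as terms, and p-values were adjusted over 23217 genes by the Benjamini-Hochberg method. The lines stand in for replicates in this fit, which has 1 residual degree of freedom. It called 1 of the 10 genes, PDK4, where 0.379% of all genes were called. An unadjusted p under 0.05 was found for 5 of them (PDK2, PDK3, PDK4, PDP2 and LDHA), and for 1975 of all 23217 genes. The same fit gave the difference between the lines, and 6 of the 10 genes passed, where 42.9% of all genes did. PDK2, PDK3, PDK4, PDP1 and LDHB were higher in PLC cells and MPC1 was lower. PDK4 and LDHB passed the filter on low counts only through the PLC libraries, and with at least 10 counts in every library neither was tested and 4 of the other 8 genes passed.

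PDK1 (chr2:172555373-172608669, plus strand, 15 merged exon blocks, GRCh38) is the kinase best known as a target of hypoxia signalling. It stood at 2.15 FPKM in Huh7 cells at low glucose and 3.67 FPKM at high glucose, and at 2.22 and 1.93 FPKM in PLC cells. The Huh7 library at high glucose was thus above the other 3, which lay close together. The ratio was 1.68 in Huh7 cells, with a 95% interval of 1.56 to 1.87. Intervals of a ratio between 2 libraries are exact binomial intervals of the read share without the added 0.1, and they cover counting error only. In PLC cells the ratio was 0.873, with an interval of 0.775 to 0.970, so that the 2 intervals lie on opposite sides of 1. With 1 added in place of 0.1, the Huh7 ratio was 1.48 and no longer a call. Removing the trends of the log2 ratio with GC content and gene length gave 0.964 in PLC cells, and that interval (0.855 to 1.07) includes 1. The ratio of PLC over that of Huh7 cells was 0.508, with a counting interval of 0.441 to 0.586, but without replicates the difference in response was not tested. The shared change in edgeR was 0.21 ± 0.29 on the log2 scale (SE, adjusted p = 0.960). At low glucose PDK1 differed between the lines by no more than counting error, the Huh7 level being 0.969 times that of PLC cells (0.878 to 1.07), and at high glucose it was 1.91 times as high in Huh7 as in PLC cells (1.72 to 2.12). The line difference in edgeR was -0.44 ± 0.29 (SE, adjusted p = 0.251). The antisense gene AC078883.1 shares 445 bases of exon with PDK1 and had 45, 53, 3 and 12 reads, in the order Huh7 low, Huh7 high, PLC low and PLC high, against 683, 1641, 998 and 459 reads on PDK1.

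Among 5543 genes with over 5 FPKM in all 4 libraries, BBX followed the pattern of PDK1 most closely, at a root mean square distance of 0.09 in centred log2 FPKM. Its levels were 5.95 and 10.7 FPKM in Huh7 cells and 6.01 and 6.16 FPKM in PLC cells. RNU6-570P, a U6 pseudogene, and DNAJA1, a co-chaperone, came next at 0.11 and 0.12. With 4 points, such likeness is only a description.

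PDK4 (chr7:95583499-95596516, minus strand) had 2 and 16 reads in Huh7 cells at low and high glucose, and 1492 and 2781 reads in PLC cells. In FPKM these were 0.0206 and 0.117 in Huh7 cells, both under 0.5, and 10.8 and 38.1 in PLC cells. The 2 PLC libraries thus hold nearly all of its reads, 4273 of 4291. In PLC cells the ratio was 3.49 (interval 3.30 to 3.75), the largest of the 10 genes in that line. In Huh7 cells the ratio without the added 0.1 was 5.68, with an interval from 1.34 to 51.0, and no call was made. In the shared test PDK4 rose by 1.78 ± 0.31 on the log2 scale (SE, edgeR, adjusted p = 0.0317), which rests on the PLC libraries by the read counts above. The adjusted p ranged from 0.000205 to 1 over 5 alternatives, of which 4 kept the call, and it was lost without the line as a block. The fold of PLC over Huh7 cells was 527 at low glucose (146 to 4353) and 326 at high glucose (200 to 571). AC002451.1, which overlaps PDK4 on the other strand but shares no base of exon, had at most 29 reads. Of the 7 hepatocyte markers past the FPKM filter in PLC cells, 4 were also called higher at high glucose. Over all genes this share was 26.2%. The 4 were AFP (ratio 3.30), APOA1 (3.46), SERPINA1 (2.34) and FGB (1.97), whereas ALB (1.38), APOB (1.05) and HNF4A (1.10) were not called. The part of these markers in the PDK4 result was not tested.

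PDK2 (chr17:50094737-50112152, plus strand), the kinase found in most tissues, was at 0.180 and 0.498 FPKM in Huh7 cells and at 0.767 and 2.32 FPKM in PLC cells. Both high glucose libraries were above the low glucose library of their line, and both PLC libraries were above both Huh7 libraries. The Huh7 value at high glucose was just under the filter, so that its ratio of 2.14 (interval 1.70 to 4.72) was not a call, and the PLC ratio was 2.80 (2.42 to 3.81). The shared change was 1.46 ± 0.38 on the log2 scale, which did not pass in edgeR (SE, adjusted p = 0.149). It passed only without a filter on low counts (adjusted p = 0.0386). The difference between the lines was 2.16 ± 0.39 (SE, edgeR, adjusted p = 0.000590). PDK2 shares 2113 bases of exon with SAMD14 on the other strand, which had at most 14 reads. Whether reads in these bases were counted was not checked.

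PDK3 (chrX:24465270-24550466, plus strand), a kinase that pyruvate inhibits only weakly, was at 3.13 and 4.84 FPKM in Huh7 cells and at 9.34 and 13.5 FPKM in PLC cells. Its ratio was 1.53 (1.43 to 1.68) in Huh7 cells against 1.44 (1.38 to 1.52) in PLC cells, just past and just short of the threshold of 1.5. Under TMM scaling they were 1.49 and 1.33, and neither was a call. The shared change of 0.50 ± 0.22 did not pass (SE, edgeR, adjusted p = 0.542). PDK3 was higher in PLC cells by 1.54 ± 0.22 on the log2 scale (SE, edgeR, adjusted p = 0.000110).

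The 4 kinases together came to 5.48 FPKM in Huh7 cells at low glucose, 9.13 at high glucose, and 23.2 and 55.9 FPKM in PLC cells with the gene lengths of the table. With canonical transcript lengths the sums were 26.9, 42.4, 89.7 and 159 FPKM, again higher at high glucose in each line. With the lengths of the table, PDK3 made up 57.1% and 53.0% of this sum in Huh7 cells and PDK1 39.3% and 40.3%, whereas PDK4 made up 0.376% and 1.28%. In PLC cells PDK4 was the largest share, 46.8% (45.4% to 48.3%) at low and 68.2% (67.1% to 69.3%) at high glucose, and PDK1 was 9.58% and 3.45%. The order of the kinases depends on the length used. The table gives PDK3 a length of 13506 bases, the union of all its exons, and the canonical transcript in GENCODE has 1741 bases. With canonical lengths PDK3 led in all 4 libraries, at 90.4%, 88.6%, 80.8% and 66.1%, and PDK4 in PLC cells was 15.3% and 30.3%. Reads were not recounted for the canonical lengths, so reads on exon bases outside the canonical transcript stay in these values. Those of PDK3 can therefore be too high. In the change of a read ratio with glucose, the length used and the library scaling cancel. Trends of the log2 ratio with GC content and gene length do not cancel and were not removed here. Its intervals are normal approximations on the log scale. In PLC cells the reads of PDK4 per read of PDK3 were 2.43 times as many at high as at low glucose (2.24 to 2.63), and those of PDK1 per read of PDK3 were 0.599 times as many (0.531 to 0.676). In Huh7 cells the change of PDK1 against PDK3 was 1.10 (0.980 to 1.24), and that of PDK4 against PDK3 was 3.68 with an interval from 0.844 to 16.0.

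PDP1 (chr8:93857807-93926068, plus strand), the calcium-sensitive phosphatase subunit, was at 0.626 and 0.908 FPKM in Huh7 cells and at 3.27 and 5.43 FPKM in PLC cells. Its ratio was 1.39 (1.09 to 1.94) in Huh7 cells against 1.64 (1.47 to 1.88) in PLC cells, and only the second was a call. The shared change of 0.56 ± 0.30 did not pass (SE, edgeR, adjusted p = 0.703). PDP1 was higher in PLC cells by 2.49 ± 0.31 on the log2 scale (SE, edgeR, adjusted p = 3.1e-05), and the fold was 5.22 at low (4.09 to 6.73) and 5.98 at high glucose (4.98 to 7.22).

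PDP2 (chr16:66878589-66895754, plus strand), the other catalytic subunit, stood the other way round with glucose. It was at 8.26 and 4.44 FPKM in Huh7 cells and at 8.37 and 6.23 FPKM in PLC cells, so that both low glucose libraries were above both high glucose libraries. The ratio was 0.543 (0.496 to 0.581) in Huh7 cells, the only lower call among the 10 genes, and 0.747 (0.685 to 0.807) in PLC cells. The shared change was -0.74 ± 0.24 on the log2 scale, with an unadjusted p of 0.00856 that did not pass adjustment (SE, edgeR, adjusted p = 0.290). The lines were not called different, at 0.26 ± 0.24 (SE, edgeR, adjusted p = 0.415).

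PDP1 was 7.04% (5.59% to 8.73%) of the PDP sum in Huh7 cells at low glucose and 17.0% (14.6% to 19.5%) at high glucose. In PLC cells it was 28.1% (26.2% to 30.0%) and 46.6% (43.7% to 49.4%). The share was higher at high glucose in both lines and higher in PLC than in Huh7 cells at both concentrations, and none of the 4 intervals overlap. Reads of PDP1 per read of PDP2 were 2.70 times as many at high glucose in Huh7 cells (2.03 to 3.60) and 2.24 times as many in PLC cells (1.93 to 2.59). The sum of both phosphatases was 8.89 and 5.35 FPKM in Huh7 cells and 11.6 and 11.7 FPKM in PLC cells. Summed kinase over summed phosphatase went from 0.617 to 1.71 in the Huh7 libraries and from 1.99 to 4.80 in those of PLC, higher at high glucose in each line. With canonical lengths and the same reads these ratios were 2.55, 6.60, 6.33 and 10.9, so that the order of Huh7 at high and PLC at low glucose turned round and the direction with glucose stayed.

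PDHA1 (chrX:19343893-19361718, plus strand), the substrate of these kinases and phosphatases, was at 35.3 and 33.9 FPKM in Huh7 cells and at 28.0 and 37.5 FPKM in PLC cells. The ratio was 0.960 (0.918 to 1.003) in Huh7 cells against 1.34 (1.28 to 1.41) in PLC cells, and neither was a call. Neither the shared change (0.10 ± 0.22, SE, edgeR, adjusted p = 0.978) nor the line difference (-0.09 ± 0.22, adjusted p = 0.772) passed. PDHA1 shares 956 bases of exon with MAP3K15 on the other strand, which had 290 to 820 reads, and its copy PDHA1P1 had 29 to 47 reads, against 2709 to 4590 reads on PDHA1.

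LDHA (chr11:18394560-18408425, plus strand) was the most abundant of the 10 genes in every library, at 125 and 191 FPKM in Huh7 cells and at 111 and 165 FPKM in PLC cells. Both high glucose libraries were above both low glucose libraries. The ratio was 1.53 (1.5 to 1.56) in Huh7 cells, a call, against 1.48 (1.45 to 1.52) in PLC cells, which is not a call. Under TMM scaling the ratios were 1.49 and 1.37, and neither was a call. The shared change of 0.51 ± 0.18 on the log2 scale had an unadjusted p of 0.0145 and did not pass adjustment (SE, edgeR, adjusted p = 0.363), and the lines were not called different (-0.18 ± 0.18, adjusted p = 0.445).

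LDHB (chr12:21635342-21757857, minus strand) had 0 reads in both Huh7 libraries and 682 and 430 reads in PLC cells, or 7.55 and 8.98 FPKM. Against a floor of 3 reads in the Huh7 library, LDHB was at least 160.5-fold higher in PLC cells at low glucose and at least 268.7-fold higher at high glucose. The ratio of high to low glucose in PLC cells was 1.19 (1.05 to 1.34), which is not a call. LDHB was 6.37% (5.92% to 6.84%) of the LDH sum in PLC cells at low and 5.17% (4.71% to 5.66%) at high glucose. In Huh7 cells the upper limits of its share were 0.0464% and 0.0216%. The processed copies of LDHA and LDHB had at most 10 reads each. LDHB shares 997 bases of exon with AC010197.2 on the same strand, which had at most 15 reads. Whether reads in these bases were counted was not checked. Summed LDH over PDHA1 was 3.54 and 5.63 in Huh7 cells, against 4.24 and 4.64 in PLC cells. Reads of LDHA per read of PDHA1 were 1.59 times as many at high glucose in Huh7 cells (1.52 to 1.67) and 1.11 times as many in PLC cells (1.05 to 1.17).

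MPC1 (chr6:166364919-166383013, minus strand) was at 49.0 and 44.8 FPKM in Huh7 cells and at 19.1 and 20.4 FPKM in PLC cells. The glucose ratios were 0.915 (0.857 to 0.977) and 1.07 (0.958 to 1.19), and the second was below 1 under TMM and DESeq2 scaling. MPC1 was lower in PLC cells, with a log2 difference of -1.24 ± 0.24 (SE, edgeR, adjusted p = 0.000984), the only one of the 10 genes called lower in that line. Its level in Huh7 cells was 2.57 times (2.36 to 2.79) that in PLC cells at low glucose and 2.19 times (1.99 to 2.42) at high glucose. MPC2, the partner of MPC1, was at 31.2 to 42.0 FPKM in the 4 libraries and was not called between the lines (0.11 ± 0.22, SE, edgeR, adjusted p = 0.720).

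LDHA had the highest FPKM in every library with the gene lengths of the table and with canonical lengths, and in Huh7 cells MPC1 and PDHA1 followed it with either. In PLC cells the next places depended on the length used. With the lengths of the table PDHA1 (28.0 FPKM) came second at low glucose, and PDK4 (38.1 FPKM) at high glucose, where its counting interval overlapped that of PDHA1 (37.5 FPKM). With canonical lengths PDK3 came second in both PLC libraries, at 72.5 and 105 FPKM, values that can be too high because the reads were not recounted. PDK2 was the lowest of the 10 genes in PLC cells at low glucose and PDK1 at high glucose with either length. At high glucose the counting intervals of PDK1 and PDK2 overlapped with the lengths of the table.

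Other genes around pyruvate were read from 6 lists. Of the 6 other PDH complex genes, 5 passed the FPKM filter in each line, and PDHB, the partner of PDHA1 in the first enzyme of the complex, was the only call with glucose, at a ratio of 2.41 in PLC cells (7.17 and 17.4 FPKM) and 1.14 in Huh7 cells. Over all genes 26.2% were called higher and 17.0% lower in PLC cells, and 14.1% and 13.7% in Huh7 cells. PDPR, the regulatory subunit of the phosphatase, was lower in PLC cells, with a log2 difference of -1.70 (edgeR, adjusted p = 8.0e-05), and no other gene of this list passed between the lines, where 42.9% of all genes did. Among 6 other carrier and LDH genes, 3 passed the FPKM filter in Huh7 and 4 in PLC cells, where 14.1% and 26.2% of all genes were called higher. LDHD, which acts on D-lactate, was called higher in PLC cells (2.61, interval 1.94 to 4.21, 47 and 71 reads). LDHAL6A was called higher in Huh7 cells (1.58, 30 and 71 reads), with an interval of 1.08 to 2.67 that includes the threshold of 1.5. LDHAL6B was higher in PLC cells by 2.08 (log2, edgeR, adjusted p = 0.00684), a call that DESeq2 did not make (adjusted p = 0.113). Of 4 genes of this list tested between the lines it was the only one edgeR called, where 42.9% of all genes were.

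Of 6 genes for lactate and pyruvate transport across the cell membrane, 5 passed the FPKM filter in Huh7 and 3 in PLC cells. The only call with glucose was SLC16A8, at a ratio of 0.459 in PLC cells, where 17.0% of all genes were called lower and 26.2% higher. None was called in Huh7 cells, where 13.7% of all genes were called lower and 14.1% higher. The lines differed in 5 of the 6 by edgeR, where 42.9% of all genes did, and of these EMB in PLC and SLC16A8 in Huh7 cells had at most 6 reads, so that both were tested only through the other line. SLC16A7, a high-affinity pyruvate carrier, was at 35.7 and 28.0 FPKM in Huh7 cells and at 0.330 and 0.250 FPKM in PLC cells, a log2 difference of -6.77 (adjusted p = 2.2e-09). SLC16A3, the lactate exporter of glycolytic cells, EMB, a chaperone of these carriers, and SLC16A1 were also lower in PLC cells, with log2 differences of -3.78, -7.16 and -0.87, and SLC16A8 was higher by 4.70. BSG, the other chaperone, was not called with glucose or between the lines.

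Among 5 other enzymes that make or use pyruvate, GPT2, the mitochondrial alanine aminotransferase, fell in the shared test by 1.31 ± 0.24 on the log2 scale (SE, edgeR, adjusted p = 0.0420). It was at 11.4 and 4.03 FPKM in Huh7 cells (ratio 0.361) and at 14.6 and 7.47 FPKM in PLC cells (ratio 0.515), so both high glucose libraries were below both low glucose libraries. The call was lost with at least 10 counts in every library (adjusted p = 0.0853) and without the line as a block. GPT, its cytosolic counterpart, was called lower in Huh7 cells (0.660), and GPT2 in both lines. Over all genes 13.7% were called lower in Huh7 and 17.0% in PLC cells, and 26.2% were called higher in PLC cells. PKLR, the liver and red cell pyruvate kinase, was called higher in PLC cells (3.07, from 3.21 to 10.1 FPKM) and was under the filter in Huh7 cells, with a line difference of 5.42 (log2, edgeR, adjusted p = 3.2e-06). Pyruvate carboxylase, PC, was lower in PLC cells (log2 difference -2.10) and GPT2 was higher (0.63, edgeR, adjusted p = 6.5e-06 and 0.0496). The call of GPT2 between the lines was lost in DESeq2 (adjusted p = 0.0793) and limma (adjusted p = 0.0528). PKM was not called in either line or between them.

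The 3 genes that supply the PDH complex with lipoate, its swinging-arm cofactor, were all called in PLC cells, where 26.2% of all genes were called higher and 17.0% lower, and none was called in Huh7 cells, where 14.1% and 13.7% were. LIPT2 (2.63) was called higher, and LIAS (0.577) and LIPT1 (0.656) lower. None of the 3 passed the shared test by edgeR, DESeq2 or limma. In edgeR 1 of them, LIAS, had an unadjusted p under 0.05, as had 1975 of all 23217 genes. LIAS was higher in PLC cells by 1.22 on the log2 scale (edgeR, adjusted p = 0.00421).

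Of 8 factors known to act on PDK or LDH genes, none was called higher with glucose in either line. Over all genes 14.1% were called higher in Huh7 and 26.2% in PLC cells. In Huh7 cells 3 of the 8 were called lower, where 13.7% of all genes were. In PLC cells 2 were, where 17.0% of all genes were. MYC, known to raise LDHA, was called lower in both (0.633 in Huh7 and 0.546 in PLC cells), as was FOXO1, known to raise PDK4 in fasting (0.578 and 0.539), and PPARGC1A was called lower in Huh7 cells (0.446). None of the 8 passed the shared test (edgeR, adjusted p = 0.144 for MYC and 0.178 for FOXO1). In edgeR 3 of the 8 had an unadjusted p under 0.05, as had 1975 of all 23217 genes. In DESeq2 MYC passed (adjusted p = 0.0281), and in limma none did. Between the lines 4 of the 8 passed in edgeR, where 42.9% of all genes did. HIF1A and EPAS1, which code for subunits of hypoxia-inducible factors, were lower in PLC cells, with log2 differences of -0.92 and -1.27 (edgeR, adjusted p = 0.00223 and 0.000281). PPARA and PPARGC1A were higher by 1.41 and 1.82 (edgeR, adjusted p = 0.000434 and 0.000561).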

How the data were processed

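RNA of 4 cultures was sequenced after rRNA removal (RiboMinus) with a directional kit (NEBNext Ultra Directional). The deposited values are counts, the number of reads that the authors assigned to each gene, with no normalization. The submitters' processing notes name HISAT2, featureCounts and hg38. The strand setting and the annotation release are not given in the sources used here, so reads of a gene and its antisense partner cannot be told apart. Of 59657 lines, 5 lines of a broken ANK2 entry were left out. The Huh7 libraries had 21376239 (5 mM glucose) and 30085303 (25 mM) reads on genes and the PLC libraries 30279716 and 16049686, and 3 reads correspond to 0.0991 to 0.187 CPM.

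FPKM was computed from the counts, the deposited gene lengths and the library totals. Within a line no test is possible with 1 library per condition, and ratios were called by the study's thresholds. Intervals are 95% and cover counting error only. For PDK shares they follow from the delta method. For the ratio of PLC over Huh7 ratios and for changes of read ratios they are normal approximations on the log scale. These are rough at few reads. The other printed intervals are Clopper-Pearson intervals. The change shared by both lines and the difference between lines come from edgeR 4.0.16 (R 4.3.3) with filterByExpr, TMM, an additive model of line and glucose, and Benjamini-Hochberg adjustment at 0.05. Its p-values measure the spread between single libraries of 2 lines that are not replicate cultures. The code was tested on simulated data. Alternatives were other added constants, scalings and thresholds, removal of GC and length trends, DESeq2 1.42.0, limma 3.58.1, other filters, no block and other lengths.

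The genes named are the 10 genes, genes of the other lists that were called, overlapping genes and processed copies with at least 20 reads, and the 3 genes most like PDK1. BSG, PKM, MPC2, PECAM1, SAMD14, AC010197.2 and genes said to be under a limit or not called were added after their values were seen. The genes and lists were chosen with earlier results of these data known. Results for some genes of 1 list are not reported here.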

Additional observations from a re-analysis of the deposited data

Results flagged for a closer look

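The PDK1 ratio of high to low glucose was 1.68 for the Huh7 line and 0.873 for the PLC line, and the counting intervals of the 2 ratios lie on opposite sides of 1. Whether the lines differ was not tested, since each condition has 1 library. The ratios were 1.63 and 0.806 under TMM scaling and 1.70 and 0.964 with the GC and length trends removed, where the PLC interval of 0.855 to 1.07 includes 1. With 1 added to both FPKM values they were 1.48 and 0.909, and the Huh7 ratio was no longer past 1.5.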

How the results depend on the processing

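Leaving out a replicate was not possible with 1 library per condition. The labels give no replicate numbers, and the line as a block pairs the libraries of a line. In Huh7 cells the genes called higher went from 3 to 1 with a constant of 1 added (LDHA), with TMM scaling (PDK1) and with TMM scaling among genes of at least 100 reads (PDK1, an alternative added after seeing the data), and to 0 with a ratio over 2, where the lower calls also went from 1 to 0. In PLC cells they went from 3 to 5 with GC and length trends removed, as PDK3 and LDHA passed 1.5. Over all genes the calls were 6068 in Huh7 and 9409 in PLC cells, and they came to 3092 and 5982 with a constant of 1, to 3066 and 5253 with thresholds of 2 and 0.5, to 3427 and 5917 with FPKM over 0.5 in both libraries, to 3175 and 5891 with at least 20 reads, and to 1230 and 3497 with TMM and at least 100 reads. The higher genes were 60.7% of calls in PLC cells, and 51.3% under TMM and 50.5% under DESeq2 scaling.

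The shared test called 88 genes and 1 of the 10. Without a filter it called 526 genes and 2 of the 10, and with DESeq2 194 genes. With at least 10 counts in every library it called 27 genes and 0 of the 8 still tested. There 4 of the 8 had an unadjusted p under 0.05, as had 1692 of 16164 genes. Without the block it called 0 genes, with 52 at an unadjusted p under 0.05, and 0 of the 10. Between the lines, 9969 genes and 6 of the 10 passed, and with at least 10 counts in every library 6340 genes and 4 of the 8 still tested. By reads alone, PDK1 was 42.5% and 44.3% of the PDK genes in Huh7 cells, PDK4 was 23.2% and 43.6% in PLC cells, and LDHA was 96.8% and 97.4% of the LDH genes there. With canonical lengths and the same reads (added after seeing the data) these were 8.46% and 9.15%, 15.3% and 30.3%, and 94.5% and 95.6%. No called value changed its direction in the alternatives run. Depth limits PDK4, PDK2 and LDHB in Huh7 cells most, with 0 to 82 reads.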
